A study of Canis lupus familiaris with 17 samples.

Results

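Glycolysis and the pentose phosphate pathway were followed gene by gene in the circulating leukocytes of 7 healthy dogs and 10 dogs with osteosarcoma (OS), a malignant bone tumor. The genes were taken from a list of 34 symbols for glucose and lactate transporters, glycolytic enzymes, pyruvate dehydrogenase kinases and pentose phosphate enzymes. Of these, 27 were found by symbol among the 20257 genes counted in all 17 libraries, with 1 Ensembl identifier each. ALDOA, PGAM1, PKM, LDHA, TALDO1, RPIA and RPE have no entry under these symbols and were not analysed here, so the main aldolase, phosphoglycerate mutase and pyruvate kinase steps and the A subunit of lactate dehydrogenase are not covered. Each library was 1 client-owned dog. The healthy dogs had no known disease, and the OS dogs carried a primary tumor and had received no treatment. All are labelled wild type, and ages are not part of the labels. Blood leukocytes were taken from the interface of a Ficoll density gradient and then put through red cell lysis, so the neutrophils described are those recovered at that interface. Single cells were captured with 10x Genomics 3′ chemistry, in which each mRNA molecule read is counted once as a unique molecular identifier (UMI).

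Glucose enters leukocytes through facilitative transporters (SLC2A1, SLC2A3), is trapped by hexokinase, and runs through glucose-6-phosphate isomerase, phosphofructokinase, aldolase, triose-phosphate isomerase, GAPDH, phosphoglycerate kinase and enolase to pyruvate. Pyruvate is reduced to lactate, which leaves through monocarboxylate transporters, or enters the mitochondrion through pyruvate dehydrogenase, which the PDK kinases switch off. The pentose phosphate pathway branches off at glucose-6-phosphate and supplies NADPH for the oxidative burst of phagocytes, and neutrophils are known for living largely on glycolysis with few mitochondria.

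After filtering, 76490 cells entered the analysis. They were clustered without the genes described here, and clusters were named from marker genes, most of which the study chose on these same dogs, so every class name means cells like that type. The classes held 5227 neutrophils, 671 PMN-MDSC (polymorphonuclear myeloid-derived suppressor cells, a CD4-negative neutrophil population), 2489 granulocytes (eosinophils and basophils), 14985 monocytes, 43743 T cells and 7021 B cells. Levels are given as CPM, the UMIs of a gene scaled to 1000000 UMIs of the same class and dog. CAMP averaged 39600 CPM in PMN-MDSC and 5.72 in neutrophils, CD4 averaged 3986 in neutrophils and 21.5 in PMN-MDSC, IL5RA 624 in granulocytes, LYZ 20570 in monocytes (8727 in PMN-MDSC and 1909 in neutrophils), CD3E 893 in T cells and PAX5 599 in B cells. S100A8 was spread more widely, at 26530 in neutrophils, 105400 in PMN-MDSC, 2372 in monocytes and 1752 in T cells. A dog entered a class with at least 25 cells. PMN-MDSC reached that number in 5 dogs, all with OS (OS2, OS4, OS5, OS7 and OS9), while each healthy dog held 3 to 16 such cells, and the groups were not compared in that class. Granulocytes reached it in 15 dogs. Libraries held between 7740230 and 56510134 UMIs, and each library was 1 sample from 1 dog. Between groups, p-values rest on the spread between dogs. Between classes, they rest on how far the difference within a dog varies from dog to dog. The count tests described below estimate this spread partly from all genes tested. Their very small p-values therefore do not rest on the spread of a single gene alone. Of 91883 distinct barcodes, 1124 occurred in more than 1 library, with at most 22 shared by a pair. Some libraries stood apart. Neutrophils made up 39.05% of the cells in H7 and 1.29% to 11.3% in the other dogs, monocytes made up 44.2% in OS5, OS3 was the smallest library with 1221 cells analysed, and H2 held the lowest level of many of the genes described, as given below.

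Summed levels were highest in PMN-MDSC and, through GAPDH, in neutrophils. Summed over the 27 genes, PMN-MDSC held 11874 ± 1203 CPM (SD, n = 5 dogs) and neutrophils 8673 ± 1475 (SD, n = 17). Granulocytes held 4989 ± 958 (SD, n = 15) and monocytes 4897 ± 637 (SD, n = 17). T cells held 1595 ± 146 and B cells 1422 ± 119 (SD, n = 17 for both). The lowest neutrophil value, 5705, lay above the highest T cell value, 1870.2. GAPDH alone made up 5638 of the neutrophil mean. Without it, PMN-MDSC still held the most, 6605 ± 301, but neutrophils (3035 ± 333) lay below granulocytes (3583 ± 489) and monocytes (3324 ± 320) in the mean and above T cells (1201 ± 86.5) and B cells (1196 ± 80.3). These are shares of each cell's own RNA. A neutrophil had on average 1730 UMIs and 14.98 from these genes, a PMN-MDSC 5969 and 71.7, a monocyte 11079 and 54.1, and a T cell 5668 and 9.07, so per cell the monocyte held more of these transcripts than the neutrophil.

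**Figure D1:**
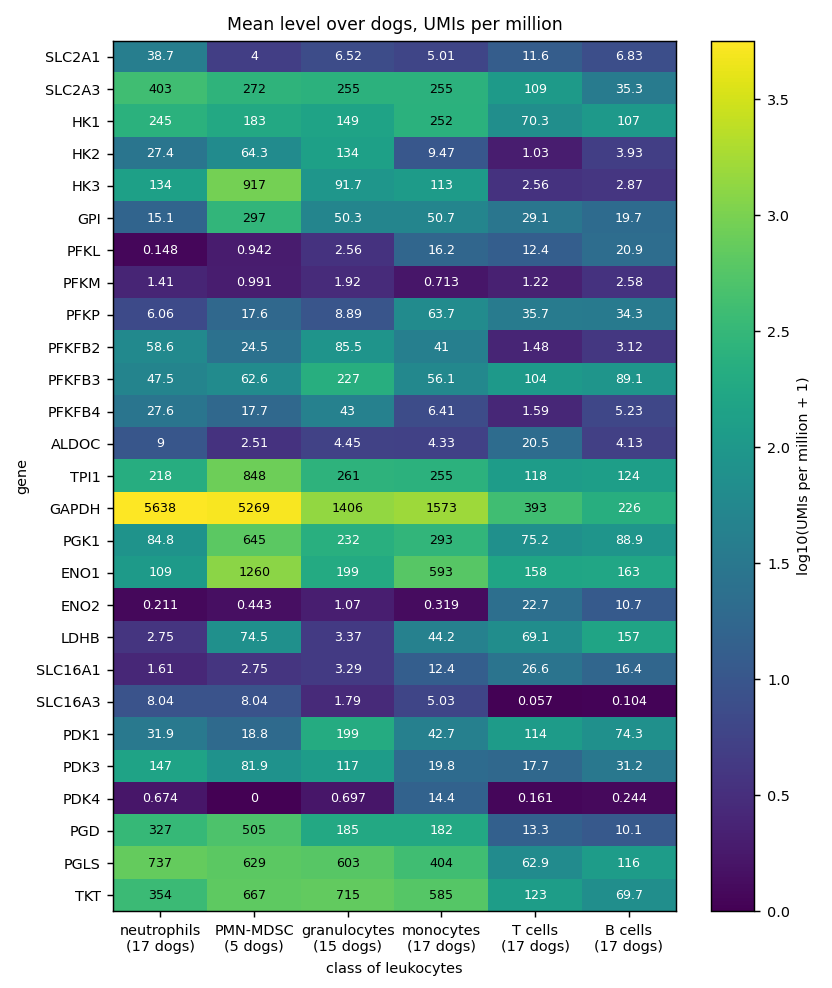
Mean level of the 27 genes (rows, from transport to the pentose phosphate enzymes) in 6 leukocyte classes (columns, with the number of dogs), printed in CPM and colored on a log10 scale of the value plus 1. GAPDH dominates in neutrophils and PMN-MDSC at 5638 and 5269, while PFKL, ENO2 and PDK4 are close to 0 in the same columns.

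The class with the highest mean level differed by gene, with PMN-MDSC, neutrophils and granulocytes each highest for 6 of the 27 genes and monocytes, T cells and B cells each for 3. PMN-MDSC led for HK3, GPI, TPI1, PGK1, ENO1 and PGD. Neutrophils led for SLC2A1, SLC2A3, GAPDH, SLC16A3, PDK3 and PGLS. Granulocytes led for HK2, PFKFB2, PFKFB3, PFKFB4, PDK1 and TKT. Monocytes led for HK1, PFKP and PDK4, T cells for ALDOC, ENO2 and SLC16A1, and B cells for PFKL, PFKM and LDHB. Not every leading class stood clear of the next. GAPDH and PGLS averaged 5638 and 737 CPM in the neutrophils of 17 dogs, and 5269 and 629 in the PMN-MDSC of 5. Both were higher in neutrophils in 4 of the 5 dogs with both classes, and neither was called in the test below. PFKM was higher in B cells than in granulocytes in 10 of 15 dogs, at means of only 2.58 and 1.92. PFKL was higher in B cells than in monocytes in 11 of 17 dogs, HK1 was higher in monocytes than in neutrophils in 11 of 17, TKT was higher in granulocytes than in PMN-MDSC in 2 of the 4 dogs with both, and SLC16A3 was higher in PMN-MDSC than in neutrophils in 4 of the 5 dogs with both, although neutrophils led in the mean over all dogs.

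SLC2A3 encodes GLUT3, the high-affinity glucose transporter of leukocytes, and SLC2A1 encodes GLUT1. SLC2A3 ranged from 235 to 693 CPM in neutrophils with a median of 388, and from 178 to 406 in monocytes with a median of 239. In T cells its median was 84.0 with a range from 51.6 to 265, and in B cells 32.3 with a range from 13.6 to 72.5. SLC2A1 was far scarcer, with a neutrophil median of 38.5 (range 0 to 67.4), a T cell median of 11.2 (6.51 to 18.6) and a monocyte median of 3.43 (0.485 to 17.7). OS3, with 65 neutrophils, was the dog at 0. SLC2A3 took 91.3% ± 3.92 of the UMIs of the pair in neutrophils, 98.1% ± 1.54 in monocytes and 82.5% ± 12.1 in B cells (SD, n = 17 for each).

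HK1 is the housekeeping hexokinase, HK2 the inducible form, and HK3 a form found mainly in myeloid cells. HK3 ranged from 829.9 to 1033 CPM in PMN-MDSC, with a median of 912, and from 62.7 to 191 in neutrophils, with a median of 132. The ranges of the pair did not overlap. In monocytes the HK3 median was 114 and in granulocytes 87.6, whereas in T cells it was 2.55 and in B cells 2.69. HK1 varied less, with medians of 262 in monocytes, 241 in neutrophils, 201 in PMN-MDSC, 109 in B cells and 68.6 in T cells. HK2 had its highest level in granulocytes, where it ranged from 56.9 to 237 with a median of 127, and the study lists it among its markers of basophils, chosen on these dogs. GPI, which converts glucose-6-phosphate to fructose-6-phosphate, ranged from 200.2 to 459 in PMN-MDSC with a median of 234, and from 0 to 30.5 in neutrophils with a median of 14.9. Monocytes lay between, at a median of 44.9 (31.2 to 94.6).

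PFKL, PFKM and PFKP are the liver, muscle and platelet forms of the enzyme that commits sugar to glycolysis. All were scarce in the granulocytic classes. PFKL gave 2 UMIs in the pooled neutrophils of 17 dogs, at a level of 0 in 15 of them, against 2746 UMIs in pooled monocytes, a ratio of levels of 79.6 with an exact 95% counting interval from 22.0 to 657. PFKP ranged from 47.0 to 108 CPM in monocytes with a median of 60.3, and from 0 to 17.7 in neutrophils with a median of 7.69. PFKL made up 34.5% ± 10.2 of the family's UMIs in B cells and 20.01% ± 6.08 in monocytes, with PFKP making up most of the rest (60.9% ± 10.8 and 79.1% ± 6.07; SD, n = 17). These and all intervals on UMIs cover counting error only.

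The PFKFB enzymes make and break down fructose-2,6-bisphosphate, the strongest activator of phosphofructokinase. PFKFB3, the form with the highest kinase activity, ranged from 154 to 303 CPM in granulocytes with a median of 220.2, from 58.0 to 198 in T cells with a median of 96.3, and from 9.57 to 181 in neutrophils with a median of 38.0. PFKFB2 ranged from 12.6 to 181 in neutrophils with a median of 44.0, and from 23.2 to 124.8 in monocytes with a median of 29.6. It stayed at or below 2.25 in every dog's T cells. The division of the family differed by class. PFKFB3 took 96.9% ± 1.20 of its UMIs in T cells and 91.1% ± 3.31 in B cells, but 55.0% ± 8.59 in monocytes and 35.9% ± 12.7 in neutrophils, where PFKFB2 took 41.5% ± 11.7 and PFKFB4 22.6% ± 11.6 (SD, n = 17). Granulocytes, at 65.8% ± 12.7 PFKFB3 (SD, n = 15), and PMN-MDSC, at 58.1% ± 14.8 (SD, n = 5), lay between, and the highest granulocyte share, 88.9%, fell within the B cell range from 83.97% to 95.2%. Shares compare genes by UMIs of the 3′ end, which do not grow with transcript length for exonic reads, and it is not stated whether the deposited counts also hold intronic reads.

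**Figure D2:**
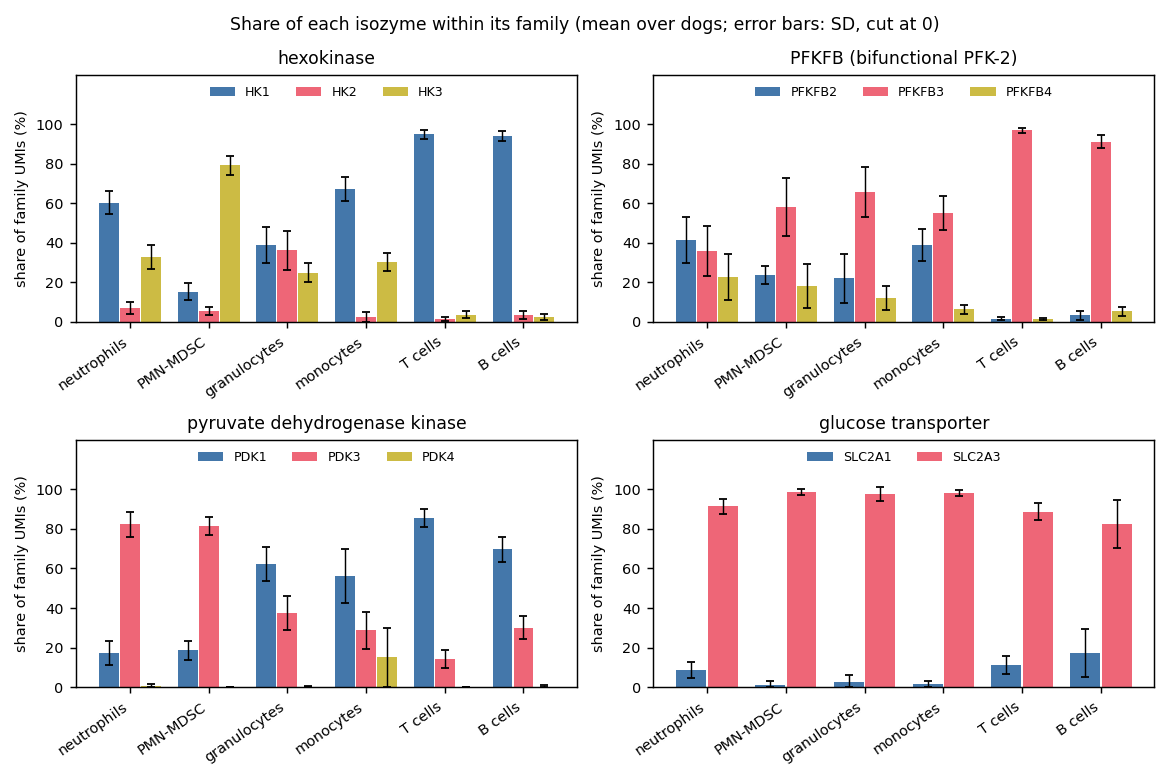
Share of each isozyme among the UMIs of its family (y axis, percent) in 6 leukocyte classes (x axis), for hexokinases, PFKFB enzymes, pyruvate dehydrogenase kinases and glucose transporters, as mean over dogs with SD. HK3 takes 79.2% in PMN-MDSC against 32.8% in neutrophils, and PDK3 takes 82.5% in neutrophils against 14.3% in T cells.

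GAPDH, which makes 1,3-bisphosphoglycerate and NADH, had the highest mean of the 27 genes in each class, with the caveat that genes differ in how well their 3′ ends are read. It ranged from 3039.7 to 8906 CPM in neutrophils with a median of 5584, from 3851 to 6342 in PMN-MDSC with a median of 5339, and from 708 to 2109 in monocytes with a median of 1509. T cells had a median of 399 and B cells of 238. The steps on either side did not follow GAPDH in neutrophils. ENO1, the common enolase, had a median of 1301 in PMN-MDSC (1166 to 1329), 587 in monocytes (342 to 974) and 100.1 in neutrophils (59.4 to 200), below the T cell median of 161. PGK1, which makes the first ATP of the pathway, had a median of 667 in PMN-MDSC, 289 in monocytes and 90.2 in neutrophils, and TPI1 one of 854, 261 and 183. Within the same dog there were 55.8 ± 15.4 GAPDH UMIs for each ENO1 UMI in neutrophils, 4.17 ± 0.569 in PMN-MDSC, 2.70 ± 0.460 in monocytes and 2.52 ± 0.5802 in T cells (SD, n = 17, 5, 17 and 17), and the lowest neutrophil ratio, 34.97, lay above the highest in PMN-MDSC, 4.77. This ratio was chosen after the levels were seen. GAPDH is known for processed pseudogene copies, and reads shared with them could not be separated. ENO2, the neuronal enolase, and ALDOC, the brain aldolase, had their highest levels in T cells, with medians of 23.1 (11.9 to 27.0) and 19.3 (13.8 to 28.3). ENO2 gave 2 UMIs in pooled neutrophils.

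**Figure D3:**
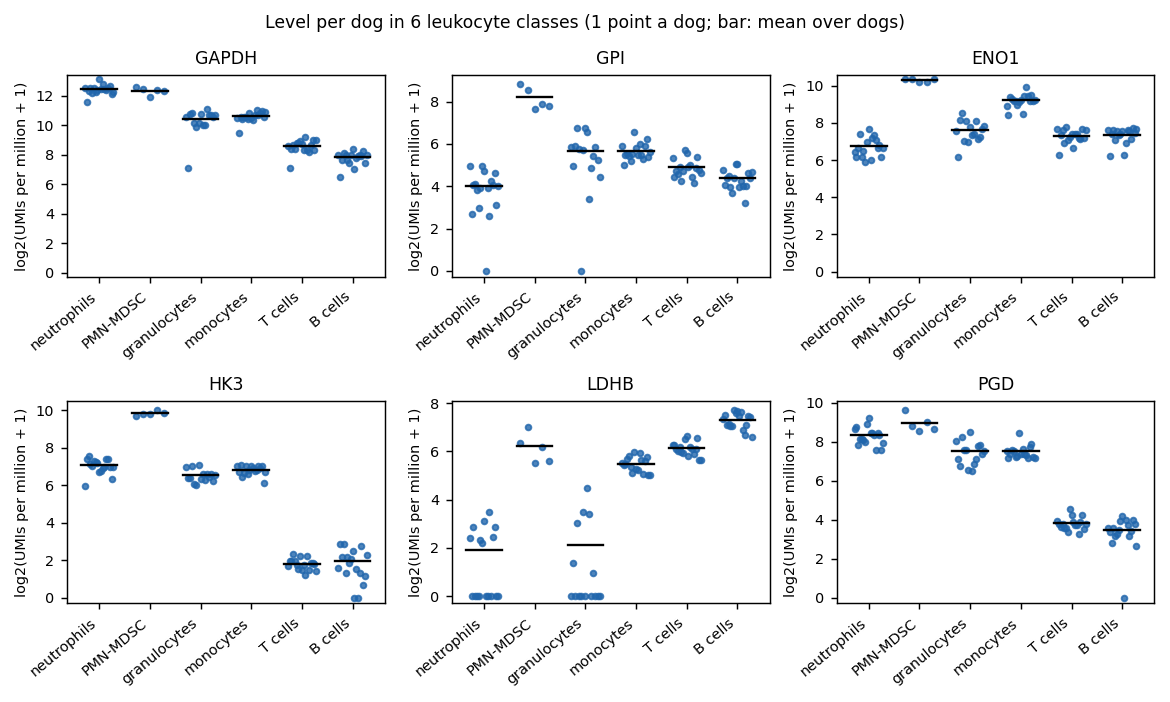
Level of GAPDH, GPI, ENO1, HK3, LDHB and PGD in each dog (points) and the log2 value of the mean over dogs (bars) in 6 leukocyte classes, on a log2 scale of CPM plus 1. GAPDH is high in both neutrophils and PMN-MDSC, whereas GPI, ENO1, HK3 and LDHB separate the 5 PMN-MDSC values from all neutrophil values.

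LDHB, the lactate dehydrogenase subunit that favors conversion of lactate to pyruvate, had a median of 162 CPM in B cells (97.2 to 208), 67.2 in T cells (49.5 to 98.2), 72.3 in PMN-MDSC (44.3 to 128) and 43.6 in monocytes (31.6 to 61.5). Neutrophils ranged from 0 to 10.2 and granulocytes from 0 to 21.2, both with a median of 0. SLC16A1 (MCT1), which carries lactate in either direction, had a median of 25.3 in T cells and 0.616 in neutrophils, and SLC16A3 (MCT4), the lactate exporter, was scarce everywhere, with medians of 5.70 in neutrophils, 3.88 in monocytes and 0.0581 in T cells. SLC16A3 took 77.3% ± 27.8 of the UMIs of the pair in neutrophils (SD, n = 14 dogs with any) and 0.214% ± 0.246 in T cells (SD, n = 17). The pyruvate dehydrogenase kinases also divided by class. PDK3 ranged from 90.4 to 229 in neutrophils with a median of 154, and from 11.3 to 27.2 in T cells with a median of 17.6. PDK1 ranged from 114 to 331 in granulocytes with a median of 171, from 44.8 to 221 in T cells with a median of 117, and from 9.62 to 66.2 in neutrophils with a median of 27.1. PDK4, a kinase induced by fasting and fatty acids, was found mainly in monocytes, with a median of 5.68 and a range from 0 to 80.2, and gave 0 UMIs in all 5 dogs' PMN-MDSC.

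PGLS and PGD, which carry out successive steps of the oxidative branch, and TKT, which links the pathway back to glycolysis, were high across the myeloid classes. PGD ranged from 374 to 787 CPM in PMN-MDSC (median 444), from 189 to 587 in neutrophils (median 321), from 90.0 to 357 in granulocytes (median 185) and from 141 to 351 in monocytes (median 164). T cells ranged from 8.51 to 22.7 and B cells from 0 to 17.02, so that no lymphocyte value reached the lowest myeloid one. PGLS had medians of 731 in neutrophils, 627 in PMN-MDSC, 613 in granulocytes, 422 in monocytes, 122 in B cells and 65.0 in T cells. TKT had medians of 696 in granulocytes, 692 in PMN-MDSC, 573 in monocytes and 343 in neutrophils, against 130.05 in T cells and 73.3 in B cells.

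The differences between classes were tested with edgeR's quasi-likelihood test on UMIs summed per dog and class, with the dog as a block and adjustment over all genes tested. Calls needed an adjusted p under 0.01 together with a log2 difference of more than 0.58 in size. The classes were built from other genes of the same cells, and many genes differ between them, so the share called among all genes is given beside each count. Fold changes come from TMM-scaled libraries and can differ from the ratio of the levels above. The SE beside a fold change is its absolute value divided by the square root of the test's F statistic. It was not fitted directly and is only a rough guide for genes with few counts.

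Between PMN-MDSC and neutrophils of the same 5 OS dogs, 9 of 23 tested genes were called higher and 2 lower, while 31.0% of the 8922 genes tested were called in either direction and 15.2% were called higher. The median log2 difference was 0.78 over the 23 genes and 0.07 over all. GPI averaged 297 ± 113 CPM in PMN-MDSC and 13.5 ± 7.75 in neutrophils (SD, n = 5), a log2 fold change of 4.66 (SE 0.26, adjusted p = 1.08e-69), and LDHB and ENO1 were higher by 4.17 (SE 0.41, adjusted p = 2.53e-23) and 3.60 (SE 0.18, adjusted p = 5.27e-83). All were higher in 5 of 5 dogs, with no overlap of the ranges. HK3, PGK1, TPI1, HK2, TKT and PGD were also called higher, by 3.29, 3.11, 2.24, 1.69, 1.26 and 0.86. SLC2A1 averaged 3.995 ± 4.87 against 35.2 ± 18.5 and fell by 2.60 (SE 0.51, adjusted p = 2.14e-06), and PFKFB2 averaged 24.5 ± 12.1 against 64.0 ± 41.3 and fell by 1.13 (SE 0.31, adjusted p = 0.000863). The PFKFB2 call was lost with DESeq2 and without the dog block (-1.11), and its direction was kept in both. GAPDH differed by 0.07 and PGLS by 0.01, and neither was called. The very small p-values rest on a spread pooled over all genes, since 5 dogs alone could not give them. The 15 monocyte markers summed to between 8170 and 11754 CPM in PMN-MDSC and between 2463 and 3321 in the neutrophils of the same dogs. LYZ, which averaged 8727 in PMN-MDSC, made up most of that sum, and F13A1, another of them, averaged 124 in PMN-MDSC and 530 in monocytes. The part of RNA from other cells in these differences was not tested. Scaling by library totals in place of TMM moved the median of all genes from 0.07 to -0.28 and the share of calls that were higher from 49.0% to 31.2%, and left 8 genes of the pathway called higher and 3 lower.

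Between neutrophils and monocytes, 8 of 27 genes were called higher in neutrophils and 10 lower, in a comparison where 52.0% of 14322 genes were called, 18.7% higher and 33.3% lower. SLC2A1 averaged 38.7 ± 18.3 CPM in neutrophils and 5.01 ± 4.89 in monocytes (SD, n = 17), a log2 fold change of 3.205 (SE 0.30, adjusted p = 5.79e-11), and was higher in 16 of 17 dogs. PDK3 (147 ± 33.1 against 19.8 ± 3.13) was higher by 2.80 (SE 0.10, adjusted p = 2.39e-21) and PFKFB4 (27.6 ± 16.9 against 6.41 ± 4.80) by 2.05 (SE 0.17, adjusted p = 6.09e-12), both in 17 of 17 dogs. The other 5 were HK2, GAPDH, ALDOC, PGLS and PGD. Downward, PFKL was called with the counts given above. PFKL, PDK4 and LDHB each met the 10 CPM needed for naming through monocytes alone. PDK4 averaged 0.674 ± 1.93 against 14.4 ± 20.5 and fell by 4.52 (SE 0.46, adjusted p = 5.20e-10). Over the alternatives its estimate ran from -7.625 in healthy dogs alone to -3.14 with DESeq2, a wider span than the SE covers. PDK4 gave 4 UMIs in pooled neutrophils, with 14 of 17 dogs at 0, and the pooled monocyte level was 33.6 times higher with an exact 95% counting interval from 13.1 to 123. LDHB averaged 2.75 ± 3.35 against 44.2 ± 9.84 and fell by 3.65 (SE 0.24, adjusted p = 1.66e-14), from 34 UMIs in pooled neutrophils, a ratio of 12.3 with an interval from 8.81 to 17.8. PFKP, SLC16A1, ENO1, PGK1, GPI, TKT and PDK1 were also called lower. Of the main glycolytic chain, GPI, PFKL, PFKP, PGK1 and ENO1 were thus called lower in neutrophils, while HK2, ALDOC and GAPDH were called higher, by 1.91, 1.14 and 1.75.

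Against neutrophils of the same 15 dogs, granulocytes had 5 of 26 genes called higher and 9 lower, with 43.7% of 10838 genes called, 18.0% higher and 25.7% lower. PDK1 averaged 199 ± 67.6 in granulocytes and 31.2 ± 14.1 in neutrophils and was higher by 2.14 (SE 0.18, adjusted p = 2.26e-16), PFKFB3 averaged 227 ± 42.8 and 38.9 ± 18.5 and was higher by 1.97 (SE 0.17, adjusted p = 1.11e-15), and HK2 averaged 134 ± 44.2 and 27.3 ± 10.7 and was higher by 1.65 (SE 0.20, adjusted p = 1.23e-10), each in 15 of 15 dogs. GPI and PGK1 were the other 2. SLC2A1 fell by 3.65 (SE 0.35, adjusted p = 5.08e-14), GAPDH fell by 2.66 (SE 0.15, adjusted p = 3.77e-23) and PGD fell by 1.35 (SE 0.14, adjusted p = 1.99e-12), and SLC2A3, HK1, HK3, PGLS, PDK3 and SLC16A3 were also called lower. This comparison depends on the scaling. By library totals the median of all genes moved from -0.17 to 0.39 and the share of calls that were higher from 41.2% to 66.8%. The counts of called genes of the pathway went from 5 higher and 9 lower to 9 higher and 5 lower. This is not the same genes changing sides, since the 9 called lower with TMM also averaged lower CPM in granulocytes, as SLC2A3 at 255 against 417. SLC2A1, GAPDH, PDK1, PFKFB3, HK2 and PGD, named above with their tests, kept their direction and their calls.

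Monocytes exceeded T cells for most of the set. Of 27 genes, 18 were called higher in monocytes and 6 lower, and 51.2% of 15870 genes were called, 23.9% higher and 27.3% lower. The median log2 difference was 1.603 over the set and -0.11 over all genes. PDK4 averaged 14.4 ± 20.5 in monocytes and 0.161 ± 0.239 in T cells and was higher by 6.59 (SE 0.29, adjusted p = 5.17e-15) in 16 of 17 dogs. HK3 (113 ± 18.4 against 2.56 ± 0.762) was higher by 5.71 (SE 0.13, adjusted p = 1.14e-20) and PFKFB2 (41.0 ± 26.8 against 1.48 ± 0.468) by 4.83 (SE 0.18, adjusted p = 1.51e-16), both in 17 of 17 dogs. PGD, PGLS and TKT were higher by 4.03, 2.94 and 2.50. ENO2 (0.319 ± 0.325 against 22.7 ± 3.84) fell by 6.11 (SE 0.24, adjusted p = 1.98e-16), ALDOC fell by 1.98 (SE 0.11, adjusted p = 1.35e-13) and SLC2A1 fell by 1.299 (SE 0.28, adjusted p = 0.000234, not called in the healthy dogs alone at -1.53), and SLC16A1, PFKFB3 and PDK1 were the other 3 called lower. The 15 monocyte markers summed to between 100.3 and 255 CPM in the T cells, where they reached 24350 to 37500 in the monocytes, and the 12 T cell markers to between 17.5 and 117 in the monocytes. The 10 neutrophil markers, S100A8 among them, summed to between 1322 and 3202 in the T cells and between 4609 and 7266 in the monocytes, and the 9 B cell markers to between 384 and 1164 in the monocytes. The part of RNA from other cells in the low levels was not tested. By library totals the median of all genes moved from -0.11 to -0.36, 17 genes were called higher and 8 lower, and 35.8% in place of 46.7% of all calls were higher.

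B cells and T cells were closer. Among 27 genes, 8 were called higher in B cells and 9 lower, with 30.5% of 15528 genes called, 14.1% higher and 16.4% lower. LDHB averaged 157 ± 35.3 in B cells and 69.1 ± 14.1 in T cells and was higher by 1.04 (SE 0.07, adjusted p = 1.14e-13), PGLS by 0.74 (SE 0.05, adjusted p = 2.43e-12) and PDK3 by 0.66 (SE 0.07, adjusted p = 2.16e-09), each in 17 of 17 dogs. ALDOC fell by 2.48 (SE 0.12, adjusted p = 1.23e-16), SLC2A3 fell by 1.75 (SE 0.11, adjusted p = 3.31e-14) and ENO2 fell by 1.23 (SE 0.14, adjusted p = 1.58e-08), with B cells below T cells in 17 of 17 dogs for each. By library totals the median of all genes moved from -0.10 to 0.02 and the share of all calls that were higher from 46.4% to 54.1%. In the set, 9 genes were then called higher and 7 lower.

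Neighbouring genes of carbohydrate metabolism, 42 of 46 listed symbols being present, were read alongside, and the shares of all genes called in the same contrasts are repeated for them. In monocytes against T cells, 18 of 42 were called higher and 8 lower (all genes, 23.9% and 27.3%), with a median of 0.06, with the lowest p-values for SLC2A9 (7.64), which transports urate and sugars, and for PYGL (4.13), which breaks down glycogen. In PMN-MDSC against neutrophils, 9 of 29 were called higher and 4 lower (all genes, 15.2% and 15.8%), with a median of 0.12. Between neutrophils and monocytes 7 of 38 were called higher and 14 lower (all genes, 18.7% and 33.3%), in granulocytes against neutrophils 3 of 33 higher and 11 lower (18.0% and 25.7%), and in B cells against T cells 6 of 41 higher and 7 lower (14.1% and 16.4%). A second list held genes known to respond to low oxygen, since many glycolytic genes do, and 15 of its 16 symbols were present. The shares of all genes just given apply to it too. In monocytes against T cells 9 of 14 tested were called higher and 0 lower, with HIF1A at 1.85. In PMN-MDSC against neutrophils 3 of 12 were called higher and 4 lower, in granulocytes against neutrophils 3 of 12 higher and 5 lower, in neutrophils against monocytes 3 of 14 higher and 2 lower, and in B cells against T cells 5 of 13 higher and 2 lower. Against neutrophils, VEGFA was called lower in both PMN-MDSC and granulocytes, with log2 differences of -4.99 and -4.56, and HIF1A was called higher in both, by 1.34 and 1.88.

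Healthy and OS dogs were then compared within each class, which asks whether a tumor elsewhere in the body goes with another level of these genes in circulating cells. The comparison used the same test with 7 healthy and 10 OS dogs and no other term. edgeR called none of the set in any class (0 of 27 in all cells, T cells and monocytes, 0 of 24 in neutrophils, 0 of 23 in granulocytes and 0 of 25 in B cells), and the share called among all genes was 0.0% in each. DESeq2 likewise called 0 of the set and between 0 and 3 of all genes. The values below are therefore descriptions with their errors, at unadjusted p-values.

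In all cells together, 7 of 27 genes had an unadjusted p below 0.05, all higher in OS dogs, where 5.71% of 16259 genes had such a p and 2.57% had one with a higher level. The estimate was positive for 22 of 27 with a median of 0.33, against 49.0% of all genes and a median of -0.00459. The 7 were PDK4, GPI, PFKFB2, PGD, SLC16A3, PFKP and PGK1. GPI ranged from 23.6 to 43.7 CPM in healthy dogs with a median of 30.4, and from 25.6 to 66.2 in OS dogs with a median of 38.6, a log2 difference of 0.55 (SE 0.19, adjusted p = 0.717). PFKFB2 had medians of 10.2 and 17.5 (0.81, SE 0.32, adjusted p = 0.758) and PGD of 64.3 and 80.2 (0.52, SE 0.21, adjusted p = 0.788). The groups overlapped for all 27. All-cell values mix cell shares with levels per cell, and fewer cells of a type and less RNA per cell cannot be told apart there. The share of monocytes, which hold more of these transcripts than lymphocytes do, ranged from 10.4% to 22.8% in healthy dogs and from 7.22% to 44.2% in OS dogs, and that of neutrophils from 1.70% to 39.05% and from 1.29% to 11.3%. Without OS5, the dog at 44.2%, the median over the set was 0.20, against 0.33 with all dogs.

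**Figure D4:**
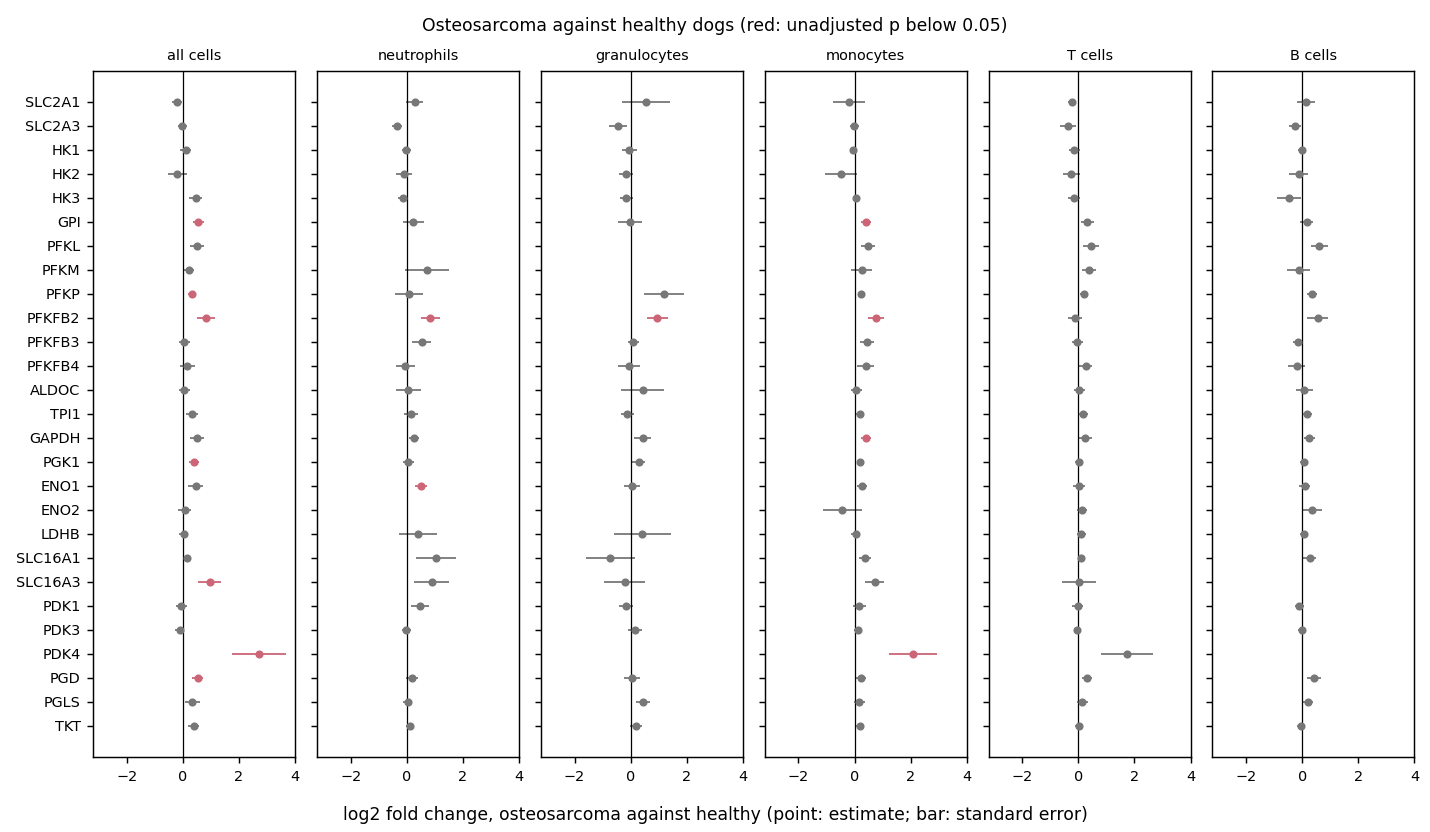
Log2 fold change of OS against healthy dogs (x axis; points, estimates; bars, SE derived from the test statistic) for each of the 27 genes (y axis) in all cells and 5 classes, in red where the unadjusted p is below 0.05. In all cells 7 genes are red, with 4 in monocytes, 2 in neutrophils, 1 in granulocytes and 0 in T and B cells, and all are to the right of 0.

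In monocytes, 4 of 27 genes had an unadjusted p below 0.05, all higher in OS dogs, against 6.14% of 14127 genes and 3.22% in that direction. The estimate was positive for 22 of 27 with a median of 0.19, and for 50.9% of all genes with a median of 0.00590. PFKFB2 ranged from 23.7 to 42.7 CPM in healthy dogs with a median of 26.6, and from 23.2 to 124.8 in OS dogs with a median of 36.8. OS3, OS9 and OS2 held the 3 highest values, and the other 7 OS dogs lay between 23.2 and 43.4. The log2 difference was 0.78 (SE 0.29, p = 0.0145, adjusted p = 0.700), and 0.58 without OS3. GAPDH ranged from 708 to 1538 in healthy dogs with a median of 1418, and from 1290.4 to 2109 in OS dogs with a median of 1754. Of the OS dogs, 9 of 10 lay above the healthy median. The difference was 0.41 (SE 0.17, p = 0.0223, adjusted p = 0.728), and 0.32 without H2, the healthy dog at 708. PDK4 ranged from 0 to 18.2 in healthy dogs with a median of 2.42, and from 1.07 to 80.2 in OS dogs with a median of 11.3. OS3, OS7, OS5 and OS10 lay above every healthy dog. The difference was 2.08 (SE 0.85, p = 0.0238, adjusted p = 0.728), 1.70 without OS3 and 3.04 without H4. GPI was the fourth gene with such a p.

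Monocytes fell into several clusters whose shares varied widely between dogs. A cluster led by CCL3, SERPINB2 and IL1A held a median of 8.98% of the monocytes of healthy dogs (1.33% to 73.5%) and 31.4% of those of OS dogs (4.29% to 88.95%), ranges that overlap over most of their length, and 31.7% of its cells came from OS5. The genes described here took no part in the clustering. Within that cluster GAPDH averaged 1228 ± 335 in healthy and 1686 ± 271 in OS dogs (SD, n = 5 and 9 dogs with at least 25 cells), and in the other large monocyte cluster 1345 ± 319 and 1743 ± 172 (SD, n = 6 and 7), with fewer dogs than the 7 and 10 behind the values of all monocytes. PFKFB2 averaged 32.4 ± 11.4 and 55.1 ± 31.5 in the first cluster and 29.0 ± 8.48 and 38.4 ± 20.3 in the second. PDK4 averaged 0.175 ± 0.312 and 22.0 ± 24.0 in the first and 5.65 ± 6.46 and 13.6 ± 16.2 in the second. No test was made within clusters.

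In neutrophils, 2 of 24 genes had an unadjusted p below 0.05, both higher in OS dogs, against 4.41% of 9965 genes and 2.41% in that direction. The estimate was positive for 18 of 24 with a median of 0.17, and for 4782 of the 9965 genes tested with a median of -0.02. PFKFB2 ranged from 12.6 to 61.3 in healthy dogs with a median of 28.2, and from 19.1 to 181 in OS dogs with a median of 64.1, with OS3, OS9, OS6, OS10 and OS5 above every healthy dog. The difference was 0.84 (SE 0.34, p = 0.0207, adjusted p = 1.00). H7, which gave 33.2% of all neutrophils, was the highest healthy dog, and without it the difference was 1.18. ENO1 had medians of 84.0 in healthy and 116 in OS dogs (59.4 to 166 and 64.1 to 200), a difference of 0.50 (SE 0.23, p = 0.0337, adjusted p = 1.00). SLC2A3 went the other way, with medians of 446 and 359 (367 to 693 and 235 to 569), a difference of -0.34 (SE 0.18, p = 0.0624, adjusted p = 1.00), and 8 of 10 OS dogs lay below the healthy median.

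**Figure D5:**
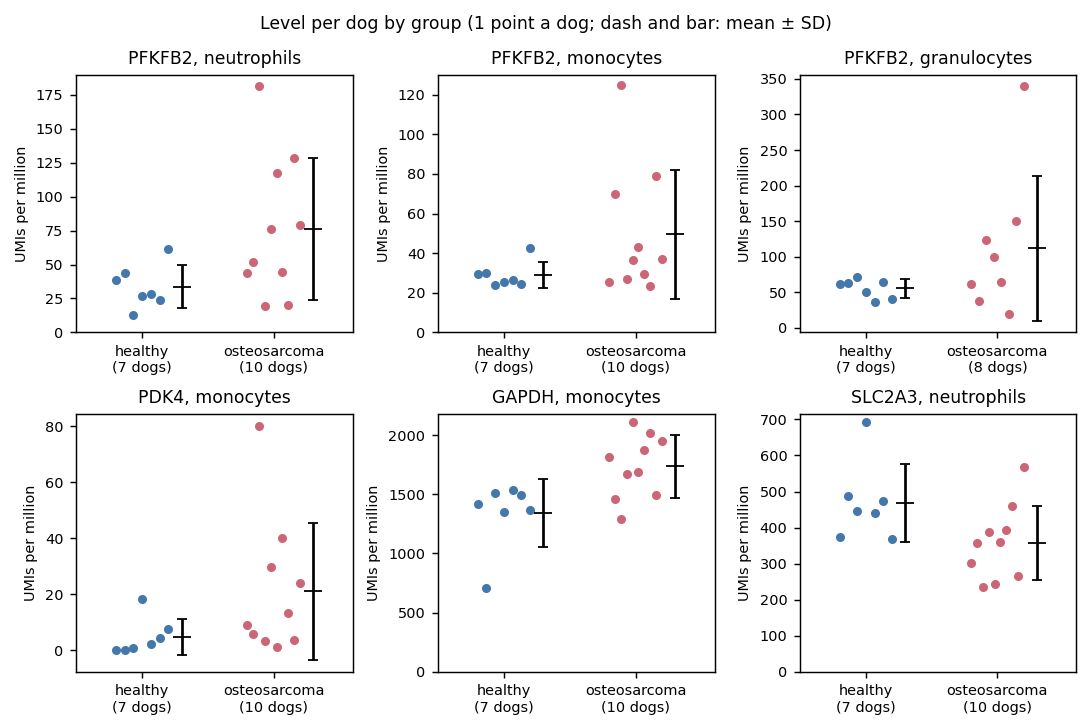
Level in each dog (points, CPM) for PFKFB2 in neutrophils, monocytes and granulocytes, PDK4 and GAPDH in monocytes and SLC2A3 in neutrophils, by group, with mean ± SD. In every panel the groups overlap, and single dogs such as OS10 at 340 for PFKFB2 in granulocytes and H2 at 708 for GAPDH in monocytes stand away from the rest of their group.

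In granulocytes, 1 of 23 genes had an unadjusted p below 0.05, against 5.88% of 8889 genes and 3.09% in the same direction, and the estimate was positive for 13 of 23 and for 51.3% of all genes. The gene was again PFKFB2, which ranged from 36.9 to 71.2 in the 7 healthy dogs with a median of 61.6, and from 19.0 to 340 in 8 OS dogs with a median of 82.4. OS2 and OS3 had fewer than 25 granulocytes and took no part. The difference was 0.94 (SE 0.38, p = 0.0183, adjusted p = 0.781), and OS10, at 340, lay far above the next value of 150. Without OS10 it was 0.58, and 0 genes of the set had an unadjusted p below 0.05. PGLS had medians of 519 and 615 (0.44, SE 0.25, p = 0.0906, and 0.26 without OS6) and GAPDH of 1139 and 1650 (0.43, SE 0.30, p = 0.162, and 0.22 without H2). With all dogs PFKFB2 had the lowest unadjusted p of the set in neutrophils, monocytes and granulocytes, and these are classes of the same dogs and libraries, so the 3 estimates are not independent. The 7 platelet markers also had higher medians in OS dogs. Their summed level had medians of 65.9 CPM in healthy and 162 in OS dogs in neutrophils (10.9 to 266 and 21.4 to 336), 63.9 and 189 in granulocytes (10.2 to 329 and 41.2 to 369.5) and 19.9 and 37.1 in monocytes (5.38 to 62.0 and 6.61 to 67.5), with overlap in each. In T cells the medians were 23.2 and 37.5 and in B cells 45.6 and 67.2. In the larger cluster of cells named platelets, PFKFB2 itself averaged 2.39 ± 3.63 CPM, with a highest value of 10.6 (SD, n = 16 dogs). The part of platelet RNA in the PFKFB2 values was not tested. In T cells the PFKFB2 estimate went the other way, from medians under 2 CPM.

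T and B cells had 0 of 27 and 0 of 25 genes with an unadjusted p below 0.05, where 3.48% of 15248 and 4.99% of 12595 genes had one. The estimate was positive for 18 of 27 and 15 of 25 with medians of 0.03 and 0.08, and for 52.5% and 48.8% of all genes. In T cells the lowest p-values were those of PGD, with medians of 11.5 in healthy and 13.1 in OS dogs (0.31, SE 0.17, p = 0.0824), PFKL (9.46 and 12.8, 0.44, SE 0.28, p = 0.132) and SLC2A1 (11.4 and 10.999, -0.22, SE 0.14, p = 0.149). In B cells they were PFKL (15.5 and 19.1, 0.61, SE 0.30, p = 0.0516), PFKP (29.5 and 41.1, 0.33, SE 0.18, p = 0.0701) and PGD (9.21 and 12.4, 0.42, SE 0.26, p = 0.124). SLC2A3 in T cells varied widely within groups, from 60.8 to 265 in healthy and from 51.6 to 173 in OS dogs, with H2 and H1 highest. Whether the OS difference itself differed between monocytes and T cells or between neutrophils and monocytes was tested as an interaction. It was called for 0 of 27 genes and 0% of 15870 and 14322 genes by edgeR. At an unadjusted p below 0.05 there was 1 gene of the set in the first, PFKFB3 (0.48, SE 0.15, p = 0.00378, adjusted p = 1), and 0 in the second, where 4.13% and 4.67% of all genes had one.

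The shares of the isozymes did not separate the groups either. Of 55 shares compared between healthy and OS dogs by a two-sided exact permutation test, 0 had a p below 0.05 and the smallest adjusted p was 0.977. The smallest p, 0.0883, was that of PDK4 among the pyruvate dehydrogenase kinases of monocytes, at 7.63% ± 9.97 in healthy dogs (SD, n = 7) and 20.2% ± 16.2 in OS dogs (SD, n = 10), where the design could reach 5.14e-05. In the carbohydrate list edgeR called 0 genes in any class and in all cells, with medians between -0.01 and 0.09. At an unadjusted p below 0.05 there were 2 higher and 2 lower in OS dogs of 42 in all cells (9.52%, against the 5.71% of all genes), 2 of 32 in neutrophils and 2 of 38 in monocytes, all higher (6.25% and 5.26%, against 4.41% and 6.14%), 3 of 27 in granulocytes, all lower (11.1% against 5.88%), 1 of 41 in T cells, lower (2.44% against 3.48%), and 2 higher and 1 lower of 36 in B cells (8.33% against 4.99%). In the low-oxygen list it called 0, with medians between -0.23 and 0.07. There, 1 of 14 was higher in all cells (7.14%), 1 of 12 higher in neutrophils (8.33%), 1 of 12 lower in granulocytes (8.33%), 1 higher and 2 lower of 13 in B cells (23.1%), and 0 of 14 and 0 of 13 in monocytes and T cells, against the same shares of all genes.

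Single dogs stood apart at many of these genes. H2 held the lowest GAPDH of all dogs in each of the 5 classes of at least 15 dogs, at 3039.7 in neutrophils where the next dog had 4529, at 134 in granulocytes where the next had 937, at 708 in monocytes where the next had 1290.4, at 136 in T cells where the next had 286, and at 89.2 in B cells where the next had 130.5. It also had the lowest ENO1 in granulocytes, monocytes, T cells and B cells and the lowest TPI1 in granulocytes, monocytes and T cells, while its SLC2A3 was the highest in monocytes and T cells. Over the 27 genes and 5 classes, H2 was the lowest dog for 27 of the 110 values with a single lowest dog, and the next, OS3, for 13. The highest values were less concentrated in a single dog, with OS1 highest for 19 of 135, OS5 for 17 and OS3 for 15. OS1 also gave 81.6% of the erythrocyte cluster, and the 4 erythrocyte markers summed to 152 CPM in its neutrophils, 141 in its granulocytes and 79.8 in its B cells. The cells of H2 had a median of 6628.5 UMIs, second among the 17 libraries to OS2 with 6644. The part of depth in these values was not tested.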

How the data were processed

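Single-cell RNA-seq of blood leukocytes from 7 healthy and 10 OS dogs was used. Per the labels and the study's methods, the authors made the deposited counts with Cell Ranger 7.0.0 on CanFam 3.1. Each value is a UMI count per gene and cell barcode, not normalized, and whether intronic reads are included in the deposited matrices is not given in the sources used here. From these counts, barcodes with 200 to 4500 genes, 500 to 20000 UMIs and under 10% mitochondrial UMIs were kept, which removes the deepest barcodes, many of which may be monocytes. Doublets were scored by simulation and removed at 0.8% per 1000 barcodes. Cells were clustered with scanpy 1.11.5 on 2000 variable genes, 30 components corrected across dogs, 20 neighbours and resolution 1 (Leiden in igraph 0.11.9), leaving out 165 genes, among them the genes described here. Clusters were named from marker lists, with a minimum mean log2 fold of 0.5 set after the clusters were seen. A cluster of 1411 cells led by IL18, IL1B and MEFV was named monocyte by its leading genes although it scored higher on the neutrophil list. Platelets and erythrocytes were not part of any comparison. The 297 cells of an unnamed cluster and the dendritic, plasma and cycling cells entered only the comparison of all cells together.

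UMIs were summed per dog and class (at least 25 cells) and tested in edgeR 4.0.16 (R 4.3.3) with TMM scaling, genes with at least 10 counts over the samples of a fit, quasi-likelihood fits and Benjamini-Hochberg adjustment over all genes tested. Genes were called at an adjusted p under 0.01 and an absolute log2 fold change over 0.58. Class contrasts had the dog as a block. Genes named with full statistics were the 3 with the largest called fold change in each direction of a class contrast, with at least 10 CPM in 1 of the classes, and the 3 of lowest unadjusted p between groups, with a mean of at least 10 CPM. In a class contrast a gene could thus qualify through its higher class alone. Shares were compared by exact permutation in Python 3.11.15 (numpy 2.4.6). Scripts were tested on simulated data. DESeq2 1.42.0, other scalings, filters, clusterings, covariates and left-out dogs were alternatives. The study's table of ages served only as a covariate. The genes and lists were chosen with earlier results of these data known. Sequences and positions were not analysed here.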

Additional observations from a re-analysis of the deposited data

Results flagged for a closer look

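Among 49 groups of 4 to 10 dogs examined, 12 held a dog whose gap to the nearest other dog was large for the range of its group. The cut-off flags about 1 in 20 groups when values are normally distributed and the groups are independent. These groups share dogs and cells, so the rate expected here is not known. Values are CPM, as in the report. PFKFB2 gave 3 of these, with H7 at 23.05 in all cells, where the other healthy dogs ranged from 6.89 to 13.7, H7 at 42.7 in monocytes, where they ranged from 23.7 to 29.9, and OS10 at 340 (339.65) in granulocytes, where the other OS dogs ranged from 19.0 to 150 (149.52). PDK4 in monocytes gave another pair, H4 at 18.2 against 0 to 7.44 in the other healthy dogs and OS3 at 80.2 against 1.07 to 40.0 in the other OS dogs. GAPDH in the monocytes of H2 was 708, with the other healthy dogs between 1353 and 1538.

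H4 stood apart in neutrophils for ENO1, at 166 against 59.4 to 100.4, and for SLC2A3, at 693 against 367 to 489. H1 stood apart for GPI in all cells, at 43.7 against 23.6 to 31.8, and for PFKL in B cells, at 26.9 against 11.6 to 17.4. PGLS in the granulocytes of OS6 was 1153, with the other OS dogs between 498 and 763. Summed over the 27 genes, the B cells of OS3 held 1153 (1152.6), with the other OS dogs between 1397 and 1627.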

How the results depend on the processing

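With both directions together, no count of called genes of the set moved by over 1.5 times under any of its 241 alternatives, and no named gene reversed. Many of the 241 belong to the comparisons of healthy and OS dogs and to the interactions. There the main count was 0, so an unmoved count means only that it stayed at 0. By direction, granulocytes against neutrophils went from 5 higher and 9 lower to 9 and 5 with library totals, and PMN-MDSC against neutrophils from 2 lower to 1 with DESeq2 and without the dog block. Under the alternatives, 888 values of named genes kept their direction and side of the threshold and 3 did not. These were PFKFB2 between PMN-MDSC and neutrophils, with DESeq2 and, at -1.11, without the dog block, and SLC2A1 between monocytes and T cells, at -1.53 in healthy dogs alone. Many of the 888 belong to genes compared between healthy and OS dogs. Those genes were called in no setting, so for them keeping the side means only that they stayed uncalled. Over all genes, the main count between healthy and OS dogs was 0 in every class, and DESeq2 called 3 in all cells, 2 in monocytes and 1 in granulocytes. Age as a covariate gave 1 in B cells. Leaving out 1 dog at a time gave 0 to 2 in monocytes (2 without H4) and, as an alternative chosen after seeing the data, 0 to 9 in granulocytes (9 without OS4, 1 without H5), none of them in the set. Healthy dogs alone gave 3105 genes between granulocytes and neutrophils, where all dogs gave 4737. The cause of these changes was not tested. The groups share replicate numbers in the labels, which name separate dogs. Deviations of same-numbered dogs correlated between -0.19 and 0.25, so the numbers do not pair them. With the replicate block, 12 genes were called in neutrophils and 2 in granulocytes, none of them in the set. Depth limits PFKL, PFKM, ENO2, LDHB, SLC16A1 and PDK4 in neutrophils and granulocytes, with medians of 0 or under 1 CPM in both, and the PMN-MDSC values rest on 583 cells.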

Other observations

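Outside the classes compared, the cells named platelets fell into 2 clusters. In the larger (3307 cells, a median of 739 UMIs) the 27 genes summed to 5344 ± 598 CPM (SD, n = 16 dogs with at least 25 cells). PFKM, the muscle phosphofructokinase, stood at 575 ± 226 there, where neutrophils had 1.41 and B cells 2.58, TKT at 1591 ± 247 and ENO1 at 1037 ± 277. The smaller cluster (393 cells, a median of 5796 UMIs) also held T cell RNA, with CD3E at 929 ± 132 against 24.4 ± 20.1 in the larger, and its sum was 1507 ± 158 (SD, n = 6). Dendritic cells held 2069 ± 157 over the 27 genes (SD, n = 14) and plasma cells 1457 ± 195 (SD, n = 11). Within T cells, the clusters named CD4 T cells (14566 cells) and CD8 T or NK cells (11228) held sums of 1841 ± 183 and 1748 ± 186 (SD, n = 17). They leave out clusters named only T cells, among them one of 8757 cells led in part by LEF1 and CCR7. Clusters named other T cells are left out too. One of these, of 5061 cells, was led in part by ITGA1, which the study lists for naive CD8 T cells, and by CCR7. The values below are thus not those of all CD4 and all CD8 T cells. By gene, PDK1 averaged 116 in CD4 T cells and 33.9 in CD8 T or NK cells, PGK1 82.1 and 47.1, ALDOC 32.3 and 14.4, and LDHB 76.6 and 42.8, while HK1 averaged 76.9 and 133. These differences were not tested.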
